A study of Mus musculus with 2 samples.

Results

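The TGF-beta and BMP pathway was followed across the cells of gastric tumors that grew in mice from injected dysplastic stem cells. The genes were taken by name from the gene columns of 11 cell clusters: the TGF-beta ligands and receptors, the BMPs and their receptors, the inhibin beta chains, the activin receptors, the Smads, the GDFs, the latent TGF-beta binding proteins (LTBPs), 4 secreted inhibitors (Nog, Grem1, Chrd and Fst) and Id1, Id2 and Id3. This gave 45 genes of the 18319 named in the table, and they made up 113 of its 46855 pairs of a gene and a cluster. No row named Nog, Grem1 or Chrd was found in the table as used here, so Fst (follistatin) was the inhibitor that could be followed. By role the 45 were 15 ligands, 12 receptors, 7 Smads, 4 LTBPs, 1 secreted inhibitor, 3 Id genes, and 3 genes whose names match by spelling (Bmp1, Bmp2k and Tgfb1i1).

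The material was 1 library of a cystic adenocarcinoma, taken 10 weeks after injection of the stem cells (DP-DSC in the labels), and 1 library of a tubular adenocarcinoma, taken at 13 weeks. Both tumors grew in female mice labelled NuJ, a nude strain; nude mice lack a working thymus and keep myeloid cells and fibroblasts. Host and injected cells are both mouse, so a transcript cannot be assigned to either by species. Cells were captured on the inDrop droplet platform, and the authors deposited a single table that gives, for each cluster, genes with a linear fold above 1.5 and a p-value. Its columns carry no tumor type, so cystic and tubular cells were not compared, and with 1 library per tumor type no value has an error across animals.

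Ligands of this family are secreted as dimers and bind a type II receptor, which activates a type I receptor. The type I receptors of TGF-beta and activin phosphorylate Smad2 and Smad3, and those of BMPs phosphorylate Smad1, Smad5 and Smad9; both groups enter the nucleus with Smad4. Smad6 and Smad7 inhibit the pathway and are themselves induced by it. TGF-beta is secreted in a latent complex that LTBPs tie to the matrix. In the gastrointestinal wall the family is known for limiting epithelial growth and for driving matrix production by fibroblasts.

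Below, a listed gene is one that the table gives for a cluster, and a raised gene is a listed one with both a fold of 2 or more and a p of 0.05 or less. The reference of a fold is not written in the table, and the cells of one cluster are presumably part of the reference of another, so folds of different clusters are not independent. The p treats single cells as replicates of a cluster and serves here as a filter. How many cells a cluster holds, and how many transcripts a cell gave, was not given in the sources used here. Depth behind the folds is thus unknown.

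Marker lists place the clusters. Cluster 11 was fibroblast-like, with 8 of 8 fibroblast markers raised, and it also had 6 of 6 proliferation markers and 2 of the 5 named endothelial markers raised. Cluster 4 was macrophage-like, with 8 of 8 macrophage markers raised and 1 of 8 fibroblast markers. Cluster 8 had 8 of 8 macrophage and 4 of 6 dendritic markers raised and is left unnamed. Cluster 10 was neutrophil-like with 6 of 7 markers raised, beside 5 of the 6 named T and NK markers, 4 of 8 macrophage markers and 2 of the 5 named endothelial markers. Clusters 6 and 9 were epithelial-like, each with 5 of 9 epithelial and all 6 named surface mucous markers raised. Cluster 6 also had 3 of 6 proliferation markers, Kit of the mast list and Myh11 of the mural list raised, and cluster 9 had 2 of 6 proliferation markers and 1 of the 5 named endothelial markers. Cluster 3 had 4 of 9 epithelial and 3 of the 6 named surface mucous markers raised, cluster 2 had 5 of the 6 named erythroid markers, and clusters 1, 5 and 7 are given by number. In cluster 5, 2 of the 5 named mast markers were raised, Tpsb2 at 403.5 and Cpa3 at 177.7, which rank 1 and 3 by fold there, per the authors' deposited table. Single markers of other lists were raised as well: Slc4a1 (erythroid) in cluster 1, Cspg4 (mural) in cluster 3, Cd209a (dendritic) and Kit (mast) in cluster 4, Cdh1 (epithelium) in cluster 5, Rgs5 (mural) in clusters 7 and 8, Nkg7 (T and NK) in cluster 8 and Acta2 (mural) in cluster 11; cluster 7 also had 2 of 9 epithelial markers. The part of these other cell types' RNA in the folds below was not tested.

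Of the 45 pathway genes, 34 (75.6%) were raised in at least 1 cluster, beside 78.0% of all genes named. The raised pairs numbered 51, in 9 of the 11 clusters. Cluster 9 held the largest count, with 16 pathway genes raised (35.6%), beside 26.6% of all genes. Cluster 11 followed with 10 (22.2%), beside 17.0% of all genes, and cluster 6 with 8 (17.8%), beside 20.3%. The macrophage-like cluster 4 had 4 (8.89%), under the 18.6% of all genes raised there. Clusters 5 and 8 also had 4 each (8.89%), beside 4.32% of all genes in cluster 5 and 6.36% in cluster 8.

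The remaining clusters raised few pathway genes at these thresholds. Cluster 2 had 3 (6.67%), beside 2.89% of all genes. Cluster 3 had 1 (2.22%), beside 4.0%, and cluster 10 had 1 (2.22%), beside 4.90%. Clusters 1 and 7 had 0 at these thresholds, beside 1.82% and 3.42% of all genes raised there, and 2 and 3 pathway genes listed. The differences between the pathway's share and that of all genes amount to a few genes in each cluster and were not tested. The plot of the shares by cluster shows both.

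**Figure D1:**
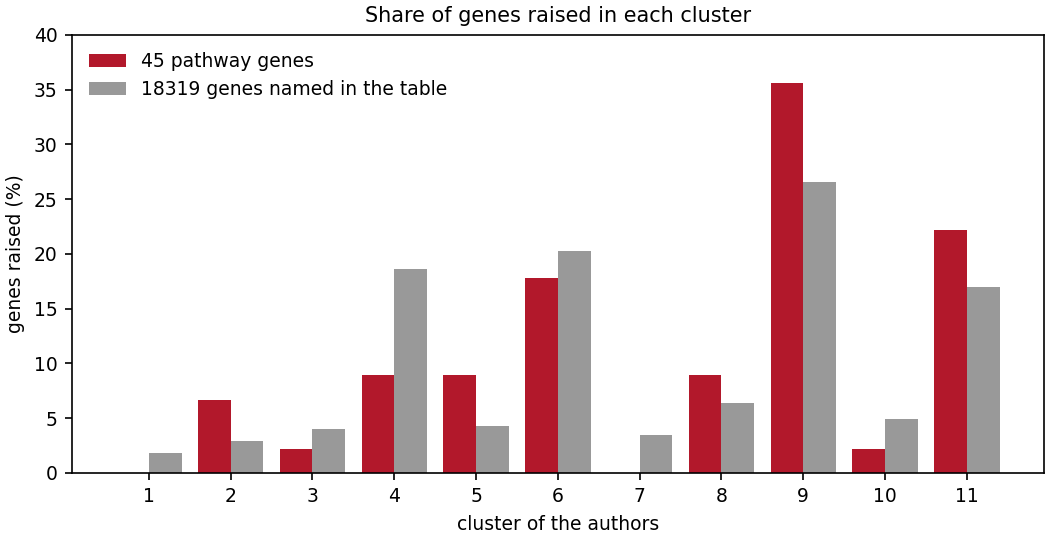
Share of genes raised in each of the 11 clusters (y axis, percent; x axis, cluster number), in red for the 45 pathway genes and in grey for the 18319 genes named in the table. The tallest pair is cluster 9, with 35.6% of pathway genes and 26.6% of all genes, and in clusters 1 and 7 the red bar is at 0.

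Breadth was close to that of other genes. Of the pathway genes, 21 (46.7%) were raised in exactly 1 cluster, 9 (20%) in 2 and 4 (8.89%) in 3, beside 50.9%, 22.3% and 4.44% of all genes. The 4 raised in 3 clusters were Bmp4, Bmpr1a, Ltbp4 and Tgfb2. The 11 raised in none were Acvr2a, Fst, Gdf15, Id1, Id2, Inhbb, Smad4, Smad7, Tgfb3, Tgfbr1 and Tgfbr3l.

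Among the clusters with 10 or more pathway genes listed, their median fold was largest in cluster 11. These medians cover listed genes, whose folds all exceed 1.5, and not all 45. The median deposited fold of the 16 pathway genes listed in cluster 11 was 6.45, beside 3.27 for all genes listed there, from the authors' deposited table. In cluster 9 the 20 listed pathway genes had a median of 2.53, beside 2.46 for all listed genes, and in cluster 6 the 14 listed had 2.28, beside 2.57, from the authors' deposited table. In cluster 8 the 13 listed pathway genes had a median of 4.98, beside 2.97, again from the authors' deposited table. Over all clusters the raised pathway pairs had a median of 4.24 and all raised pairs a median of 3.85, per the authors' deposited table.

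**Figure D2:**
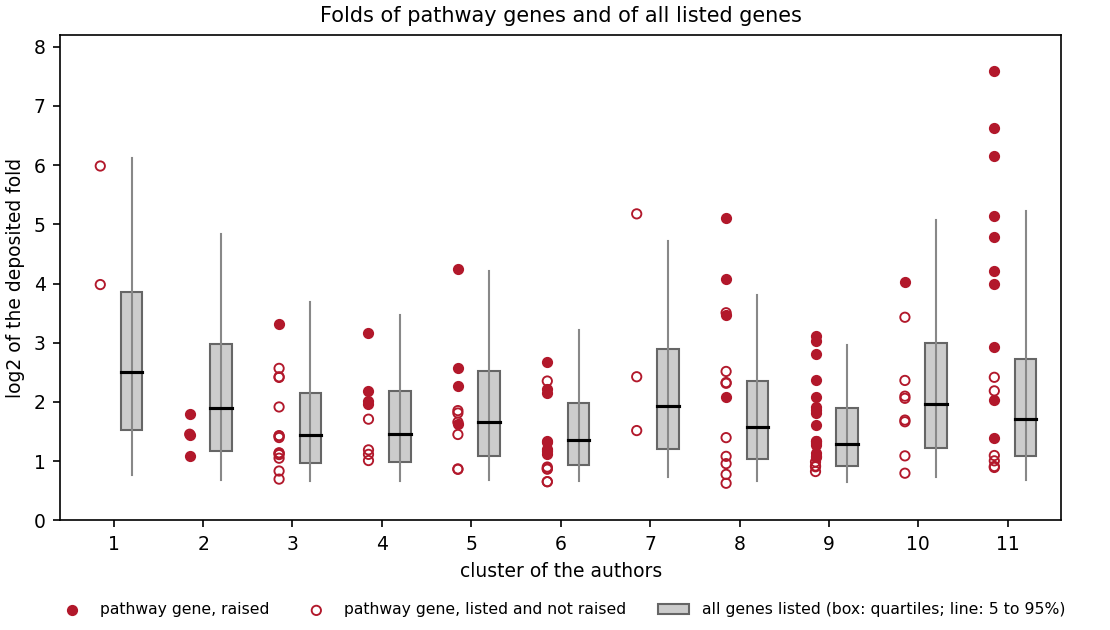
Log2 of the deposited fold (y axis) of the pathway genes listed in each cluster (red points; filled where raised, open where listed and not raised) and of all genes listed there (grey box from the first to the third quartile, black line at the median, thin line from the 5th to the 95th percentile). In cluster 11 the pathway points reach a fold of 192.6, and in cluster 9 they reach 8.68.

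**Figure D3:**
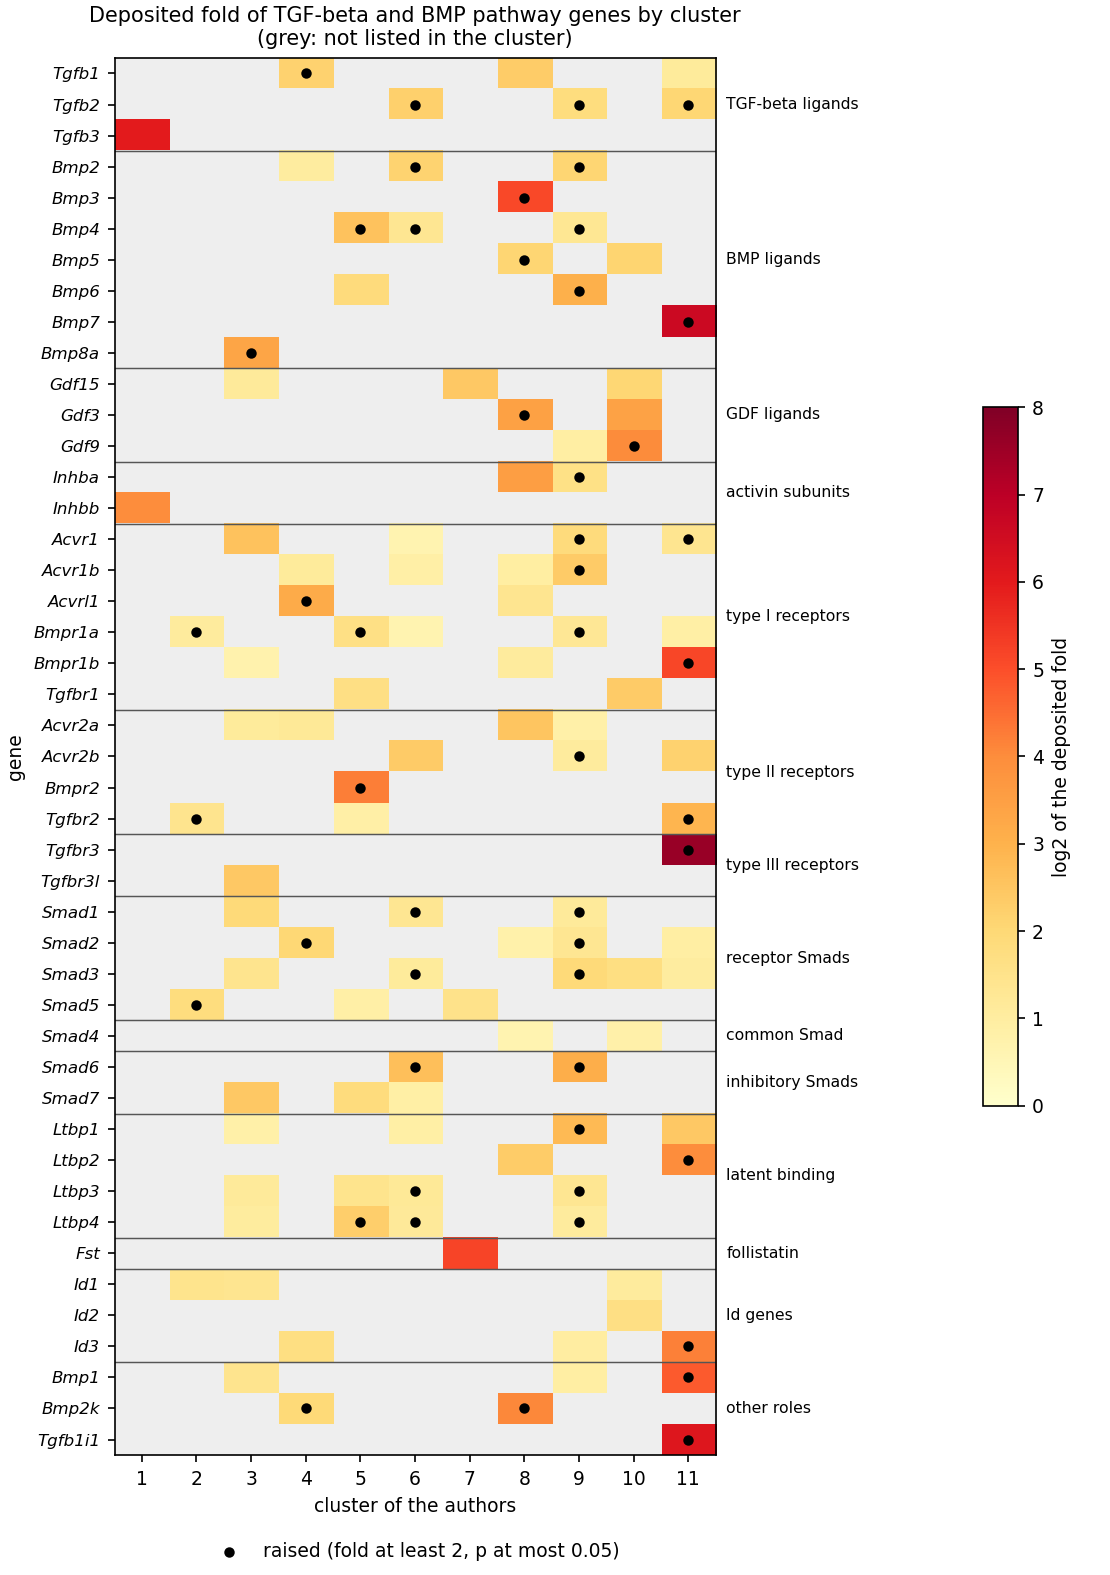
Log2 of the deposited fold (colour) of each of the 45 pathway genes (rows, grouped by role) in each cluster (columns); grey cells are pairs that the table does not list, and a black dot marks a raised pair. Dots are most frequent in column 9, with 16, and the darkest dotted cells lie in column 11, at Tgfbr3 and Bmp7.

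Promoter windows of 5 genes raised in the clusters with the most raised pathway genes hold letters that Smad proteins are known to bind. Windows of other genes raised there hold such letters too, among them those of Ltbp1, Bmp6, Tgfbr2 and Bmpr1b. The 5 windows shown are examples. They run from 250 bases before to 50 bases after the start of transcription in RefSeq on GRCm38.p6, 5′ to 3′ on the gene's strand. Of the 45 genes, 30 had windows that were searched, 39 in all. Smad2, Smad4 and Smad7 are among the genes whose windows were not searched. The pathway's motif counts below do not cover them. Capitals mark CAGAC or its reverse complement GTCTG, the Smad box, and GTCTAGAC, the palindromic site of Smad3 and Smad4; the third motif searched, GGCGCC, has no match in these 5, and no match overlaps another. Both strands were searched.
Smad6, raised in clusters 6 and 9, chr9:64022010-64022309, minus strand: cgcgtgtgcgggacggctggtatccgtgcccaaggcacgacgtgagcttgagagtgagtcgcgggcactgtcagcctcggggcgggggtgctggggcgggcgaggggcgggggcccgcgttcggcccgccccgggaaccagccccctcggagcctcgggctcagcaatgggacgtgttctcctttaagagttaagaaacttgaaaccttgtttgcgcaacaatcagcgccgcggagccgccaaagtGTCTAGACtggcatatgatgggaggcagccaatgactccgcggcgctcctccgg
Tgfb2, raised in clusters 6, 9 and 11, chr1:186705940-186706239, minus strand: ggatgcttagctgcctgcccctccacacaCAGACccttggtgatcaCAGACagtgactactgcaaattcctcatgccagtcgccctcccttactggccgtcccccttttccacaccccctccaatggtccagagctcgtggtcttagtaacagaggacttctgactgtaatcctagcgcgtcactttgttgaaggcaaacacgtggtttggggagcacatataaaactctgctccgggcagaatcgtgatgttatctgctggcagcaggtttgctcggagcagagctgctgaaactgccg
Ltbp3, raised in clusters 6 and 9, chr19:5740650-5740949, plus strand: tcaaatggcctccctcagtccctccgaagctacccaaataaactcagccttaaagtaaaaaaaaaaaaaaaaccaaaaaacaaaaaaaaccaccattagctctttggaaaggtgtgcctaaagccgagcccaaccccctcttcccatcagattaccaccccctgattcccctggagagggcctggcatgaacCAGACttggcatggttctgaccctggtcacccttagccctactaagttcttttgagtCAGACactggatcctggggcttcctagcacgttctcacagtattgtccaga
Id3, raised in cluster 11, chr4:136143572-136143871, plus strand: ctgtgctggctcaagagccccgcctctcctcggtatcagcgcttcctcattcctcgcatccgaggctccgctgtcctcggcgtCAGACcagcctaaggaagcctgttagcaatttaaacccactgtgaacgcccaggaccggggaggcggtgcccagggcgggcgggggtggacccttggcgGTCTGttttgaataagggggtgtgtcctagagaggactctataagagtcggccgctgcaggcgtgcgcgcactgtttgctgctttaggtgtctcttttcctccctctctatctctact
Ltbp2, raised in cluster 11, chr12:84876442-84876741, minus strand: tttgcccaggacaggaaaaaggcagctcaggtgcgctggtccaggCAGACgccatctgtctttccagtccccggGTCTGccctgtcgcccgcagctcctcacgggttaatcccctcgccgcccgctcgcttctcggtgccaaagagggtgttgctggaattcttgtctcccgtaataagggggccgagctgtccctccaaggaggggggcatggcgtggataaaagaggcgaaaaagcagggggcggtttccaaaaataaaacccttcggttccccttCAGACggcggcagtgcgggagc
The Smad6 window holds the palindrome once, beginning 4 bases before the start, and it was the 1 window of the pathway's 39 with it (2.56%), beside 0.213% of all 32851 windows. The Ltbp2 window holds the Smad box 3 times, and those of Tgfb2, Ltbp3 and Id3 hold it 2 times each. That motif is common: 48.7% of the pathway's windows and 49.6% of all windows have it. GGCGCC was in 25.6% of the pathway's windows and 11.9% of all, and the pathway's windows were richer in G and C, with a median of 63.3%, beside 52.7% over all windows. A match describes letters in the window and not a bound site.

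Among the TGF-beta ligands, Tgfb1 was raised in the macrophage-like cluster 4 and Tgfb2 in epithelial-like and fibroblast-like ones. The fold of Tgfb1 was larger in cluster 8, which also had 8 of 8 macrophage markers raised, but its p did not pass there. Of the genes listed, 25.8% had a p of 0.05 or less in cluster 8, beside 74.7% in cluster 4. Tgfb1 was raised in cluster 4 with a fold of 4.52, and was listed with a p above 0.05 in cluster 8 at 5.02 and in cluster 11 at 2.14, per the authors' deposited table. Tgfb2 was raised in cluster 6 at 4.68, in cluster 9 at 3.5 and in cluster 11 at 4.09, per the authors' deposited table. Tgfb1 and Tgfb2 thus had no raised cluster in common, although both were listed in cluster 11. Over all genes, 50.9% were raised in exactly 1 cluster, and how often a pair of genes lacks a common raised cluster was not counted. Tgfb3 was listed in cluster 1 alone of the 11, at 63.3 with a p above 0.05, per the authors' deposited table, a fold that ranked 66 among the 1161 genes listed there. Tgfb1 lies on chromosome 7 from 25687002 to 25705077 and Tgfb2 on chromosome 1 from 186622792 to 186705989 (GRCm38).

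All 7 BMP ligands found were raised somewhere, beside 78.0% of all genes, and 5 of them in exactly 1 cluster, beside 50.9% of all genes. Bmp2, a BMP of bone and gut development, was raised in cluster 6 at 4.43 and in cluster 9 at 4.24, and listed without passing in cluster 4 at 2.02, per the authors' deposited table. Bmp4, which in the gut is made mainly by mesenchyme, was raised in cluster 5 at 5.97, in cluster 6 at 2.49 and in cluster 9 at 2.48, per the authors' deposited table. Bmp6, known as the liver signal that sets iron balance, was raised in cluster 9 at 8.19, rank 321 of the 7131 genes listed there, and listed without passing in cluster 5 at 3.62, per the authors' deposited table. So the epithelial-like cluster 9 raised 3 of the 7 BMP ligands and cluster 6 raised 2, beside 26.6% and 20.3% of all genes. With so few ligands, the differences from these shares were not tested. Bmp4 was not listed in the fibroblast-like cluster 11.

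Bmp7, a BMP of kidney and eye development, was raised in the fibroblast-like cluster 11, with a fold of 98.2, per the authors' deposited table, and was listed in no other cluster. That fold ranked 86 among the 4710 genes listed in cluster 11, in the upper few percent (1.83%). Bmp7 lies on chromosome 2 from 172868012 to 172940321 (GRCm38). The unnamed cluster 8, with its macrophage and dendritic markers, raised Bmp3, an inhibitory member of the family, at 34.4 and Bmp5 at 4.24, per the authors' deposited table. Bmp5 was also listed in cluster 10, at 4.28 with a p above 0.05, per the authors' deposited table. Bmp8a was raised in cluster 3 at 9.95, per the authors' deposited table, the single pathway gene raised there; its reads may be shared with the near-identical Bmp8b, and the value is uncertain for that reason.

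The GDFs and the activin chains were raised in few clusters. Gdf3, a ligand of early embryos that adipose macrophages also express, was raised in cluster 8 at 11.03 and listed in cluster 10 at 10.8 with a p above 0.05, per the authors' deposited table. Gdf9, known from oocytes, was the single pathway gene raised in the neutrophil-like cluster 10, at 16.2, and was listed in cluster 9 at 1.89, per the authors' deposited table. Gdf15, a stress-induced ligand, was raised in no cluster: it was listed in cluster 3 at 2.19, in cluster 7 at 5.37 and in cluster 10 at 4.17, each with a p above 0.05, per the authors' deposited table. Inhba, whose product dimerises to activin A, was raised in the epithelial-like cluster 9 at 3.04; in cluster 8 its fold was larger, 11.4, with a p above 0.05, per the authors' deposited table. Inhbb, the chain of activin B, was listed in cluster 1 at 15.8 with a p above 0.05, per the authors' deposited table.

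Among the receptors the fibroblast-like cluster stood first by fold. Tgfbr3 encodes betaglycan, the type III co-receptor that presents TGF-beta2 to the signalling receptors and also binds inhibin. It was raised in cluster 11 with a fold of 192.6, per the authors' deposited table, rank 30 of the 4710 genes listed, and was listed in no other cluster. Tgfbr3 lies on chromosome 5 from 107106570 to 107289629 (GRCm38). Tgfbr2, the type II receptor of TGF-beta, was raised in cluster 11 at 7.57 and in cluster 2 at 2.71, and listed at 1.83 in cluster 5, per the authors' deposited table. Its type I partner Tgfbr1 was raised in none: it was listed in cluster 5 at 3.16 and in cluster 10 at 5.15, both with a p above 0.05, per the authors' deposited table. Cluster 11 therefore raised the type II and type III receptors of TGF-beta, while Tgfbr1 was not listed there.

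Of the BMP receptors, Bmpr1a and Bmpr2 were both raised in cluster 5, and Bmpr1b was raised in cluster 11. Bmpr1a (ALK3) was raised in cluster 2 at 2.12, in cluster 5 at 3.10 and in cluster 9 at 2.42, and listed with a fold under 2 in cluster 6 at 1.57 and cluster 11 at 1.86, per the authors' deposited table. Bmpr1b (ALK6), known from cartilage, was raised in cluster 11 at 35.3 and listed without passing in cluster 3 at 1.62 and cluster 8 at 2.12, per the authors' deposited table. Bmpr2, the type II receptor dedicated to BMPs, was raised in cluster 5 at 18.9, per the authors' deposited table, and was listed in no other cluster. In cluster 5 its p was among the smallest of the listed genes (rank 37 of 3765). Cluster 5, whose genes of largest fold include the mast markers Tpsb2 and Cpa3, was also where Bmp4 had its largest fold, given above, and where Bmpr1a had its largest.

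Of the activin-type receptors, Acvr1, Acvr1b and Acvr2b were raised in the epithelial-like cluster 9, where listed genes passed the p filter most often. Of the genes listed there, 97.3% had a p of 0.05 or less, beside 25.8% in cluster 8. Acvr1b had its largest fold in cluster 9. Acvr1, Acvr2a and Acvr2b had larger folds in other clusters, with a p above 0.05. The part of the unequal pass rate in these calls was not tested. Acvr1 (ALK2), a type I receptor of BMPs, was raised in cluster 9 at 3.66 and in cluster 11 at 2.61, and listed without passing in cluster 3 at 5.93 and cluster 6 at 1.57, per the authors' deposited table. Acvr1b (ALK4), the type I receptor of activin, was raised in cluster 9 at 5.19 and listed at 2.17, 1.82 and 1.94 in clusters 4, 6 and 8, per the authors' deposited table. Acvr2b, a type II receptor of activin, was raised in cluster 9 at 2.11, while its larger folds in clusters 6 and 11, 5.11 and 4.55, did not pass, per the authors' deposited table. With Inhba raised in cluster 9 as well, that cluster held an activin chain and both classes of its receptor. The inhibin alpha chain Inha and the activin-binding Fstl3 were also raised there, with folds given below. The fold of Inha was larger than that of Inhba. Whether these cells make activin or inhibin was not tested. Acvr2a, related to Acvr2b, was listed in clusters 3, 4, 8 and 9 at 2.16, 2.28, 5.72 and 1.77 and raised in none of them, per the authors' deposited table.

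Acvrl1 (ALK1), the type I receptor of BMP9 and BMP10 best known from endothelium, was raised in the macrophage-like cluster 4 at 8.95 and listed without passing in cluster 8 at 2.64, per the authors' deposited table. Of the 5 endothelial markers named in the table, 0 were raised in cluster 4, and 1 was listed there (Kdr, at 3.12 without passing, per the authors' deposited table). Tgfbr3l, a gene related to betaglycan, was listed in cluster 3 at 5.33 with a p above 0.05, per the authors' deposited table; it shares 1530 exon bases with another gene model on its own strand.

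Of the Smads, 4 of 7 were raised in cluster 9 and 3 of 7 in cluster 6, the clusters that also raised the largest shares of all genes, 26.6% and 20.3%. Smad6, the inhibitory Smad of the BMP branch, was raised in cluster 9 at 8.68 and in cluster 6 at 6.37, per the authors' deposited table, and was listed in no other cluster. In cluster 9 that was the largest fold of any pathway gene, rank 270 of the 7131 genes listed. Smad6 lies on chromosome 9 from 63953076 to 64022059 (GRCm38), and its promoter window is the one above with the palindrome. Smad7, which inhibits both branches, was raised in no cluster. It was listed in cluster 6 at 1.87, a fold under 2, and in clusters 3 and 5 at 5.37 and 3.51 with a p above 0.05, per the authors' deposited table.

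The receptor-activated Smads had smaller folds. Smad1, of the BMP branch, was raised in cluster 6 at 2.52 and cluster 9 at 2.20, and listed without passing in cluster 3 at 3.77, per the authors' deposited table. Smad3, of the TGF-beta branch, was raised in cluster 6 at 2.18 and cluster 9 at 3.79, and listed without passing in clusters 3, 10 and 11 at 2.69, 3.24 and 2.01, per the authors' deposited table. Its relative Smad2 was raised in cluster 4 at 4.03 and cluster 9 at 2.53 and listed without passing in clusters 8 and 11 at 1.71 and 1.88, per the authors' deposited table. Smad5, of the BMP branch, was raised in cluster 2 at 3.48 and listed without passing in clusters 5 and 7 at 1.82 and 2.86, per the authors' deposited table. Smad4, the shared partner, was listed in clusters 8 and 10 at 1.54 and 1.74 and raised in neither, per the authors' deposited table. No Smad was raised in the fibroblast-like cluster 11, where 2 were listed, beside 17.0% of all genes raised there.

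The 4 LTBPs were all raised somewhere, beside 78.0% of all genes, with Ltbp2 in a different cluster from the other 3. LTBP1, LTBP3 and LTBP4 bind latent TGF-beta, and LTBP2 does not. Ltbp1 was raised in cluster 9 at 7.01, and listed without passing in clusters 3, 6 and 11 at 1.78, 1.83 and 5.34, per the authors' deposited table. Ltbp3 was raised in cluster 6 at 2.30 and cluster 9 at 2.54, and listed without passing in clusters 3 and 5 at 2.21 and 2.73, per the authors' deposited table. Ltbp4 was raised in cluster 5 at 4.82, cluster 6 at 2.26 and cluster 9 at 2.13, and listed without passing in cluster 3 at 2.07, per the authors' deposited table. Ltbp2 was raised in cluster 11 at 15.9 and listed without passing in cluster 8 at 4.98, per the authors' deposited table. The epithelial-like cluster 9, where 26.6% of all genes were raised, thus raised the 3 LTBPs that bind latent TGF-beta, along with the ligand Tgfb2.

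Inhibitors and Id genes gave few raised pairs. Fst, follistatin, which traps activin, was listed in cluster 7 at 36.2, per the authors' deposited table, with a p above 0.05, a fold that ranked 72 of the 2217 genes listed there. Id1, Id2 and Id3 encode helix-loop-helix proteins that block differentiation factors and are classical BMP targets. Id3 was raised in cluster 11 at 18.5, and listed without passing in clusters 4 and 9 at 3.27 and 1.98, per the authors' deposited table. Id1 was listed in clusters 2, 3 and 10 at 2.74, 2.64 and 2.13, and Id2 in cluster 10 at 3.17, all with a p above 0.05, per the authors' deposited table. In clusters 6 and 9, where Smad1 and Smad6 were raised, Id1 and Id2 were not listed. Id3 missed the call in cluster 9 by its fold alone, with a p that passed. Other BMP targets raised in these clusters, Msx2, Atoh8 and Runx2, are given below.

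The 3 genes matched by spelling have other roles. Bmp1 is a metalloprotease that trims procollagen and cleaves chordin, and was raised in cluster 11 at 27.6, with 2.7 in cluster 3 and 1.87 in cluster 9 listed without passing, per the authors' deposited table. Tgfb1i1 (Hic-5), an adaptor of focal adhesions induced by TGF-beta, was raised in cluster 11 at 70.9, per the authors' deposited table and was listed in no other cluster. Bmp2k is a kinase induced by BMP2, and was raised in cluster 4 at 3.89 and cluster 8 at 16.8, per the authors' deposited table. Without these 3 genes the counts were 8 in cluster 11, 3 in cluster 4 and 3 in cluster 8.

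By cluster, the epithelial-like cluster 9 raised 5 ligands (Bmp2, Bmp4, Bmp6, Tgfb2 and Inhba), 4 receptors (Acvr1, Acvr1b, Acvr2b and Bmpr1a), 4 Smads and 3 LTBPs. Cluster 6 raised 3 ligands (Bmp2, Bmp4 and Tgfb2), 3 Smads and 2 LTBPs, and 0 of the 12 receptors, of which 4 were listed; in 2 of these 4, Acvr1 and Bmpr1a, the fold was 1.57, per the authors' deposited table. The fibroblast-like cluster 11 raised 2 ligands (Bmp7 and Tgfb2), 4 receptors (Acvr1, Bmpr1b, Tgfbr2 and Tgfbr3), 0 Smads, 1 LTBP and Id3. The macrophage-like cluster 4 raised 1 ligand, 1 receptor and 1 Smad, namely Tgfb1, Acvrl1 and Smad2. Cluster 8 raised 3 ligands and 0 receptors, cluster 5 raised 1 ligand, 2 receptors and 1 LTBP, and cluster 2 raised 2 receptors and 1 Smad.

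Counting did not have a stated strand, and reads from overlapping genes on opposite strands cannot then be told apart. Exons of 12 of the 45 genes overlap a gene on the opposite strand in GENCODE M21, and those of 3 overlap one on the same strand. In the clusters where these genes were raised, the overlapping gene was listed in 3 of 19 cases. Paqr3, which shares 1185 exon bases with Bmp2k, was also raised in cluster 4, and Gm17110, which shares 290 with Bmpr1a, was raised in cluster 9 and listed in cluster 5. The part of such shared reads in the folds was not tested.

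Other genes of the pathway, from 7 lists, were raised most often in cluster 11. Of 81 genes on the lists, 62 were named in the table and 52 (83.9%) were raised in at least 1 cluster, beside 78.0% of all genes. In cluster 11, 24 of the 62 (38.7%) were raised, beside the 17.0% of all genes given above. In cluster 9 it was 13 (21%), in cluster 4 it was 9 (14.5%) and in cluster 6 it was 8 (12.9%), each under the share of all genes there. Secreted antagonists and matrix regulators had 9 of 13 raised in cluster 11, led by fibrillin-1 (Fbn1) at 503.7, the follistatin-like Fstl1 at 272.9 and biglycan (Bgn) at 179.7, per the authors' deposited table. The activin-binding Fstl3 was raised there at 16.1, per the authors' deposited table. In cluster 9, 5 of the 13 were raised with smaller folds, beside 26.6% of all genes. They were led by Twsg1 at 3.54, Fstl3 at 2.66 and Nbl1 at 2.37, per the authors' deposited table.

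TGF-beta target genes had 8 of 14 raised in cluster 11, beside 17.0% of all genes. They were led by Col1a2 at 343.5, Col1a1 at 312.2 and smooth muscle actin (Acta2) at 199.2, per the authors' deposited table. Col1a1, Col1a2 and Postn of this list, and Dcn of the antagonist list, are also among the 8 fibroblast markers, so these counts and the naming of the cluster share genes. In the epithelial-like clusters 6 and 9 the raised targets were 2 and 3 of 14, under the 20.3% and 26.6% of all genes raised there. They were Ccn2 at 3.58 and Pmepa1 at 2.19 in cluster 6, per the authors' deposited table. In cluster 9 they were Cdkn2b at 5.26, Pmepa1 at 2.88 and Ccn2 at 2.58, per the authors' deposited table. Pmepa1 is a feedback inhibitor of TGF-beta signalling and Cdkn2b a cell-cycle inhibitor that TGF-beta induces in epithelium. In cluster 4, where Tgfb1 was raised, 3 of 14 targets were raised, beside 18.6% of all genes. They were Tgfbi at 8.14, Fn1 at 5.85 and Cdkn1a at 2.10, per the authors' deposited table. In cluster 8, where Tgfb1 did not pass, 2 of 14 were raised, beside 6.36% of all genes. They were Fn1 at 3.86 and Tgfbi at 3.27, per the authors' deposited table. A link of these targets to Tgfb1 was not tested.

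Of the 4 BMP targets named, Msx2 was raised in cluster 6 at 36.4, Atoh8 and Runx2 in cluster 9 at 3.20 and 2.21, and Msx1 in cluster 11 at 6.80, per the authors' deposited table. Genes that anchor or activate latent TGF-beta also differed by cluster. Nrros, which anchors latent TGF-beta1 on myeloid cells, was raised in clusters 4 and 8 at 6.28 and 8.38, and Lrrc32 (GARP) and the integrin Itgb8 in cluster 11 at 19.3 and 22.9, per the authors' deposited table. The epithelial integrin Itgb6 was raised in clusters 3 and 6 at 7.87 and 2.62, per the authors' deposited table. Nrros and Tgfb1 were thus both raised in the macrophage-like cluster 4, with the ligand not passing in cluster 8.

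Among co-receptors and their regulators, 2 of 7 were raised in each of clusters 6 and 11, where 20.3% and 17.0% of all genes were raised, so these counts are near the background. They were Vasn, which binds TGF-beta, at 3.26 and the BMP co-receptor Rgmb at 2.39 in cluster 6, and Vasn at 17.4 and Rgma at 6.68 in cluster 11, per the authors' deposited table. The pseudoreceptor Bambi was raised in cluster 4 at 3.77, per the authors' deposited table. Of 13 cytoplasmic and nuclear regulators, at most 2 were raised in any cluster. Cluster 1 raised Trim33 at 6.17 and Tgif1 at 5.47, beside 1.82% of all genes, per the authors' deposited table. Cluster 4 raised the repressors Tgif2 at 4.56 and Ski at 3.29, beside 18.6%, per the authors' deposited table. Strap was raised in cluster 5 at 7.41, beside 4.32%, and cluster 11 raised Ski at 3.16 and Nedd4l at 2.12, beside 17.0%, per the authors' deposited table. Clusters 6, 9 and 10 raised 1, 2 and 1, beside 20.3%, 26.6% and 4.90%. Of the remaining ligands, Inha, the inhibin alpha chain, was raised in cluster 9 at 15.03 and Artn in cluster 3 at 7.56, per the authors' deposited table.

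**Figure D4:**
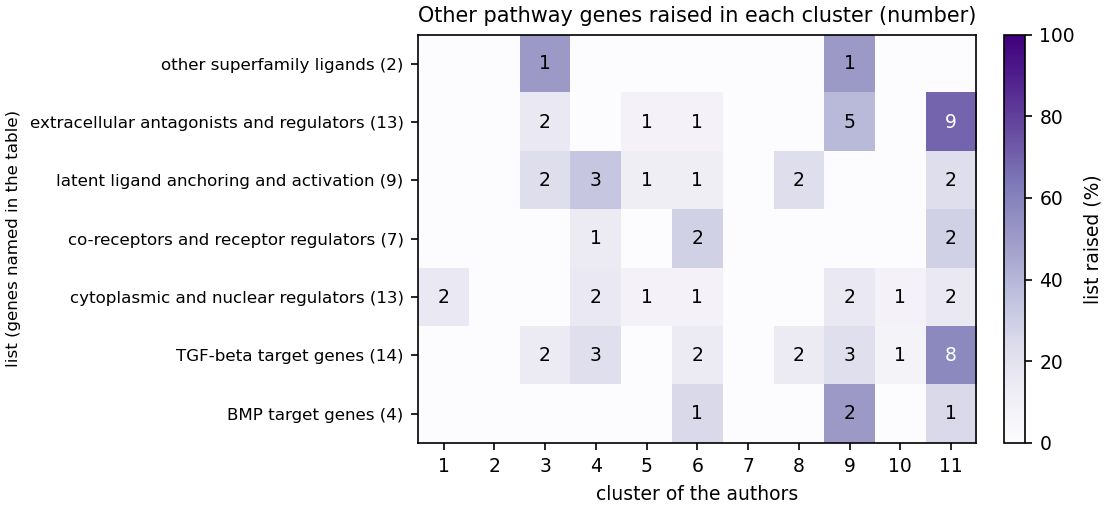
Number (printed) and percent (colour) of the genes of 7 other pathway lists raised in each cluster (columns); the number of each list's genes named in the table stands after its name. Column 11 holds the largest numbers, 9 of 13 antagonists and regulators and 8 of 14 TGF-beta targets.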

How the data were processed

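Cells of 2 tumors, 1 library each, were captured on inDrop and sequenced after TruDrop library preparation, per the labels' protocols. The submitters' processing notes name mm10, STAR 2.7.3a, Partek and DESeq2 3.5, without roles. The values come from a table of the authors' own comparisons: p-values, as the authors deposited them, and a linear ratio, the fold change per the file headers. Not given in the sources used here are the fold's reference, the test, cell filters, doublet treatment and clustering. Tumor types were grouped from the labels and could not be compared, as the table has 0 columns of per-sample values.

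Genes were found by name patterns, and a gene was called raised at a fold of at least 2 and a p of at most 0.05; no test was run. Every gene found was described, with up to 3 leading raised genes of each other list; Fstl3 in cluster 11, Kdr and the other cell markers were named after their values were seen. Members and lists were chosen with earlier results of these data known. The call was tested on simulated data. Alternatives changed the fold (1.5 or 3), the p (0.01, none, or Benjamini-Hochberg adjusted within a cluster) and the names. Positions are those of GENCODE M21 (45 of 45 matched) on GRCm38, which is mm10; promoters are RefSeq's on GRCm38.p6. Python 3.11.15 and pandas 2.3.3 were used.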

Additional observations from a re-analysis of the deposited data

How the results depend on the processing

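The count of raised pathway pairs was 51, and it was 61 at a fold of at least 1.5, 36 at a fold of at least 3, 44 at a p of at most 0.01, 46 with the p adjusted within a cluster and 47 without the genes matched by spelling. Without a filter on p it was 94, and clusters 1, 3, 4, 5, 7, 8 and 10 then counted 2, 12, 8, 8, 3, 10 and 8. These were 4.44%, 26.7%, 17.8%, 17.8%, 6.67%, 22.2% and 17.8% of the pathway genes. The shares of all genes were 5.65%, 22.0%, 23.2%, 16.3%, 10.1%, 20.3% and 15.9%. At a fold of at least 1.5 the count of cluster 6 was 13, and at a fold of at least 3 clusters 2, 6 and 9 counted 1, 3 and 9. In clusters 3 and 10 the count was 0 both at a p of at most 0.01 and with the adjusted p, so Bmp8a and Gdf9 did not pass there. Of all genes, 1.98% and 3.32% passed in these clusters at the p of 0.01, and 0.988% and 3.28% with the adjusted p. The remaining counts by cluster were within 1.5 times the reported one. Of the 51 raised pairs, 30 passed under each of the 5 alternative thresholds, 9 of them in cluster 9 and 9 in cluster 11, and 2 in cluster 6 (Smad6 and Tgfb2). A fold of at least 1.5 and the lack of a filter on p are looser than the reported call, so no raised pair could be lost under them. No fold changes sign, since the table holds folds above 1.5 alone; genes lower in a cluster are not seen. No paired analysis was possible because the table has no columns for the 2 libraries, which are 1 of each tumor type. Leaving out a library was not possible for the same reason. Depth per cell and per cluster is unknown, and a large fold with a p above 0.05, such as that of Tgfb3 in cluster 1, carries no interval.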
